A study of Sus scrofa with 22 samples.

Results

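The integrin and laminin genes were taken by symbol from the gene tables of pig taste tissue and of organoids grown from it: every ITGA and ITGB subunit gene and every LAMA, LAMB and LAMC chain gene. The rule found 38 genes of the 27376 in the count files. Of these, 26 encode integrin subunits (18 α and 8 β) and 12 encode laminin chains (5 α, 4 β and 3 γ). RNA sequencing covered 22 libraries in 6 groups. Passage 1 organoids of 5 pigs, grown in domes of basement membrane extract in the growth medium LPM, stood beside the foliate papillae of the same 5 pigs, which are taste bud-bearing folds on the rear edge of the tongue. In the FGF10 experiment 3 organoid libraries in LPM without FGF10 stood beside 3 in LPM. In the CQ experiment 3 organoid libraries were kept in LPM from day 0 and moved to CQ from day 10 to day 16 or 17, and 3 stayed in LPM. LPM held FGF10 at 100 ng/ml (0 ng/ml where it was left out), EGF at 50 ng/ml, FGF2 at 10 ng/ml, the TGF-β receptor inhibitor A-83-01 at 0.5 µM and the ROCK inhibitor Y-27632 at 10 µM, with R-spondin 2, noggin, SHH, Wnt3a, the GSK3 inhibitor CHIR99021, the p38 inhibitor SB202190, forskolin and prostaglandin E2 among its other additions. These doses are recorded for the passage 1 organoids and the FGF10 experiment, and not for LPM of the CQ experiment. The sources used here do not say what CQ contains. They also give no day for the 3 libraries that stayed in LPM, so the age of the cultures and the medium cannot be told apart. The labels give a passage only for the passage 1 organoids, and no genotype, strain or age of the pigs.

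Laminins are trimers of an α, a β and a γ chain and form the sheet of the basement membrane on which epithelial cells rest. Integrins are pairs of an α and a β subunit in the cell membrane that bind laminin, collagen, fibronectin or receptors on other cells. In stratified epithelia such as that of the tongue, basal cells hold on through hemidesmosomes, in which the integrin of ITGA6 and ITGB4 binds the anchoring laminin, to which the LAMA3 and LAMB3 chains belong. Other laminin chains belong mainly to vessels, muscle and nerve, and several integrins belong to leukocytes and platelets, so the family reports on several tissue layers at once.

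Library totals lay between 14.67 and 27.77 M counts summed over genes, in which a read pair overlapping several genes entered for each. The markers of fibroblasts and muscle differed widely between organoids and papillae. Summed over 7 fibroblast markers, the level was 0.943 to 3.32 CPM (counts per M counts of the library, with TMM scaling within each comparison) in organoids and 1909 to 7038 CPM in papillae. The 5 smooth muscle markers summed to 0.574 to 0.985 CPM in organoids and 945 to 1551 CPM in papillae, and the 6 skeletal muscle markers to 0.132 to 0.407 CPM in organoids and 249 to 7645 CPM in papillae. Sums overlapped for the 6 nerve and Schwann cell markers, at 124 to 321 CPM in organoids and 280 to 441 CPM in papillae. At the threshold given below, 5 of these were lower and 1, NGFR, was higher. Sums of the 4 platelet markers also overlapped, at 15.4 to 27.4 CPM in organoids and 12.7 to 20.8 CPM in papillae. Of these, GP9 was higher and GP1BA lower. The 3 basal squamous keratinocyte markers with an entry in the files summed to 1530 to 2551 CPM in organoids and 8571 to 11432 CPM in papillae, whereas the 4 simple epithelial markers summed to 2924 to 6863 CPM in organoids and 566 to 1325 CPM in papillae. The 3 suprabasal squamous markers summed to 147 to 1348 CPM in organoids and 19095 to 43035 CPM in papillae. The 4 gland markers summed to 8.87 to 189 CPM in organoids and 37800 to 181960 CPM in papillae. The labels give stem cells and mature taste cells as the cell type of all samples, so papilla libraries held defining markers of many cells that this label does not name. In such bulk samples fewer cells of a type and less RNA per cell cannot be told apart. The labels call the libraries of the FGF10 experiment biological replicates, and those of the CQ experiment only samples. Neither wording says whether the 3 libraries of each medium came from separate cultures or pigs, so p-values there measure only the spread between these libraries.

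Organoids differed from papillae in most integrin and laminin genes, in both directions. The anchoring laminin chains LAMA3 and LAMB3 and several epithelial integrin subunits were higher in organoids, with LAMB3 at 4.33-fold, ITGA3 at 5.39-fold and ITGB6 at 13.5-fold. The stromal and muscle laminins LAMA2 and LAMA4, the fibronectin receptor subunit ITGA5 and the muscle laminin receptor subunit ITGA7 were 7.63-fold or more lower. Of 37 members tested, 12 were called higher in organoids, 17 were called lower and 8 were not called, at an adjusted p under 0.05 in edgeR's quasi-likelihood test over all genes. Of all 16311 genes tested, 67.5% were called, 32.4% higher and 35.1% lower, so a call in itself was the usual outcome in this contrast. A fold of at least 2 was reached by 10 of the 12 higher and all 17 lower members. The median size of the log2 change was 2.89 over the called members and 1.27 over all 11011 called genes. Such a fold was thus also the usual outcome among calls. The median log2 change was -0.28 over the 37 members and -0.01 over all genes tested. Groups did not overlap in 27 of the 29 called members, the exceptions being LAMA3 and ITGB8, and in 79.9% of all called genes. Lower members near 0 in organoids, such as ITGA7 at 0 to 0.492 CPM, passed the filter on low counts through the papillae alone. Their calls as lower, their folds and their lack of overlap carry no more than their levels. The kit used to extract RNA also differed between organoids and papillae, and its part cannot be told apart from that of the tissue.

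**Figure D1:**
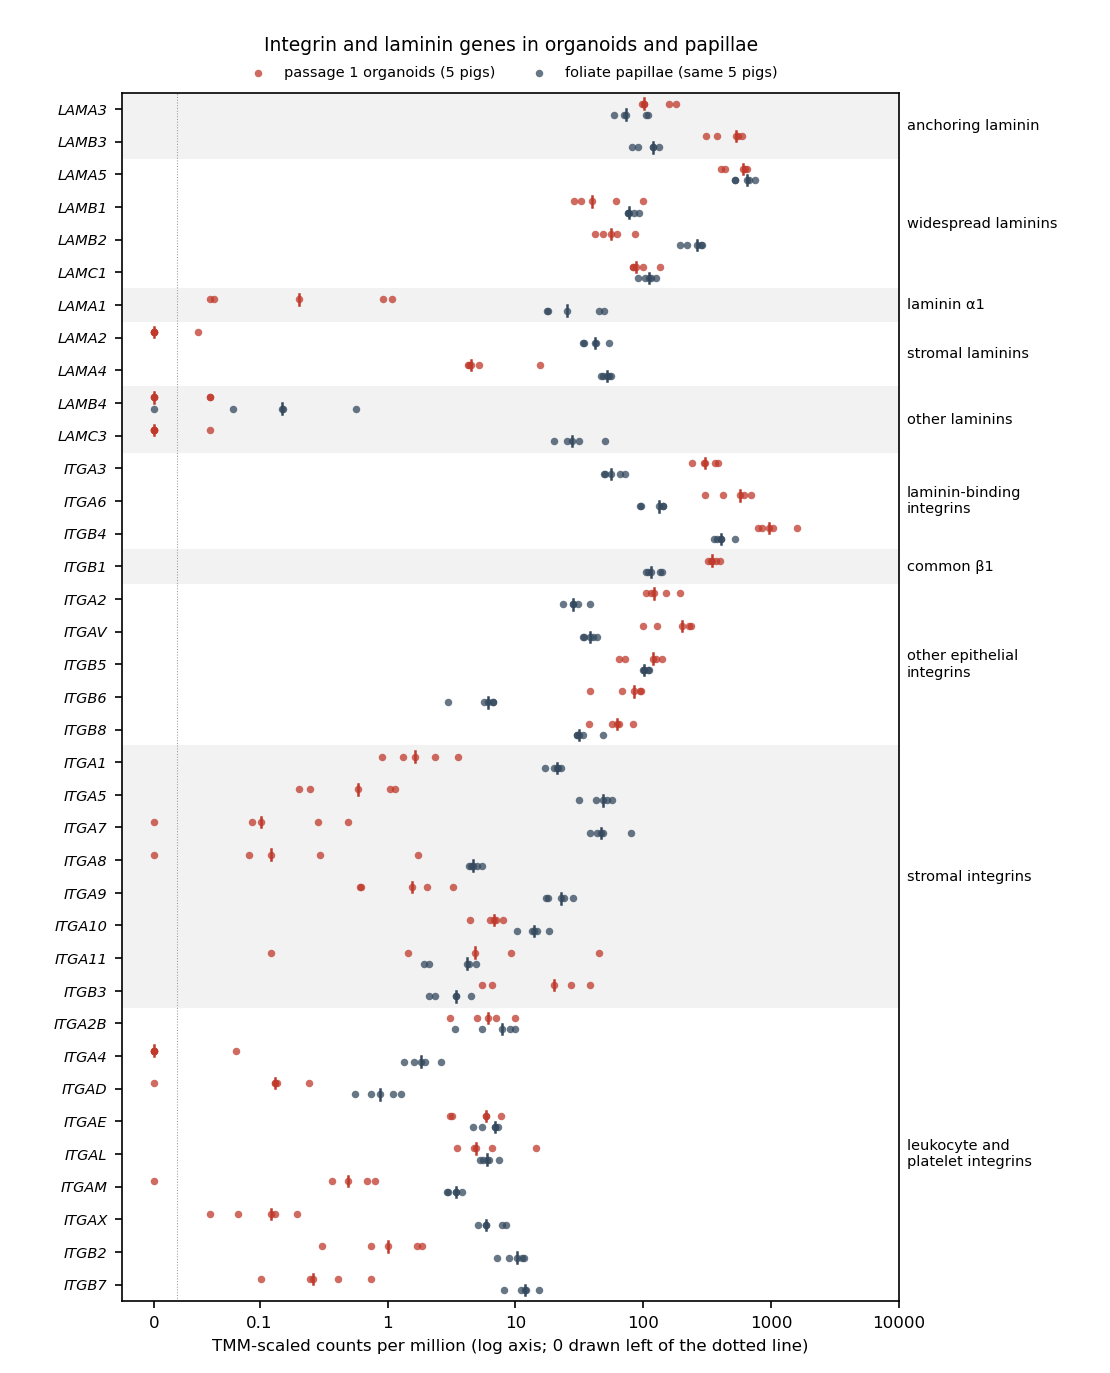
Level of 37 integrin and laminin genes in every passage 1 organoid library (5) and papilla library (5), as TMM-scaled CPM on a log axis, with 0 drawn left of the dotted line and a tick at each group's median. ITGB6 lies at 38.1 to 95.5 CPM in organoids, above 2.96 to 6.65 CPM in papillae, while ITGA7 lies at 0 to 0.492 CPM in organoids, below 38.0 to 80.7 CPM in papillae.

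The anchoring laminin chains LAMB3 and LAMA3 were both called higher, by unequal amounts. LAMB3 (chromosome 9, 133298009 to 133351162, Sscrofa11.1), the β chain, had 587, 530.0, 554, 311 and 374 CPM in the organoids of pigs 1 to 5, against 133, 119, 91.5, 81.3 and 119.7 CPM in their papillae. Every organoid library was above every papilla library, at 4.33-fold (log2 change 2.11, SE 0.21, adjusted p = 6.94e-06 by edgeR), and the organoids of pigs 4 and 5 were the lowest of the 5. LAMA3 (chromosome 6, 108548818 to 108805700), the α chain, had 97.9, 101, 101, 179.7 and 159 CPM in organoids, against 72.9, 70.2, 58.8, 105 and 108 CPM in papillae. It was higher in organoids in 5 of 5 pigs, but the groups overlapped, and its 1.54-fold change was called at an adjusted p of 0.0323 by edgeR. That call was lost with limma-voom (adjusted p = 0.103) and when the papilla of pig 1 (0.0670), 2 (0.0656) or 3 (0.0740) or the organoids of pig 4 (0.0698) or 5 (0.0707) were left out.

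The chains of the laminins more widespread in adult basement membranes, LAMA5, LAMB1, LAMB2 and LAMC1, had 1 call, LAMB2, which was lower, and 3 members that were not called. LAMB2 (chromosome 13, 31738282 to 31750623), a β chain abundant at vessels and at nerve to muscle contacts, had 42.2, 86.4, 56.2, 48.3 and 62.2 CPM in organoids, against 287, 284, 263, 220.0 and 195 CPM in papillae. No organoid library reached the lowest papilla, and the level was 4.24-fold lower (adjusted p = 5.17e-06 by edgeR). LAMA5 (chromosome 17, 61698370 to 61747795), the α chain of most adult epithelia and vessels, averaged 542 ± 114 CPM in organoids and 622 ± 98.1 CPM in papillae (SD, n = 5 each). It was lower in organoids in 5 of 5 pigs on this scale but in 3 of 5 when all 22 libraries were scaled together, and the log2 difference of -0.20 (SE 0.18) was not called (adjusted p = 0.339 by edgeR). LAMC1, the common γ chain, averaged 98.1 ± 22 CPM in organoids and 109 ± 12.5 CPM in papillae (SD, n = 5 each), with no call (adjusted p = 0.393 by edgeR). LAMB1, the other β chain, had 28.7, 39.6, 32.4, 99.9 and 61.7 CPM in organoids, against 85.2, 91.8, 75.4, 75.5 and 77.5 CPM in papillae. The organoids of pig 4 stood above all papillae and those of the other 4 pigs below them. LAMB1 was not called (log2 change -0.63, adjusted p = 0.0859 by edgeR), but was called lower with the pig as a block (log2 change -0.79, adjusted p = 0.0425) and without the organoids of pig 4 (log2 change -0.98, adjusted p = 0.00152). Without those organoids LAMC1 was also called lower (log2 change -0.28, adjusted p = 0.0477 by edgeR).

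The laminin chains of stroma, muscle and other sites were lower in organoids wherever they could be tested, and LAMA2 and LAMC3 were nearly absent there. LAMA2, the α chain of muscle and nerve basement membranes, had 1 count in all 5 organoid libraries together and 3614 in the 5 papillae. Scaled to depth, the papillae held 5488 times as much (95% counting interval 984 to 216840), with 34.0 to 53.9 CPM in each. LAMC3, a γ chain of more restricted tissue distribution, had 1 count in organoids and 2641 in papillae, where it lay at 20.1 to 49.9 CPM. Members near 0 in organoids, such as these, passed the filter on low counts through the papillae alone, so their calls as lower carry no more than these counts. LAMA4, the α chain of vessel walls and fat, averaged 6.75 ± 4.95 CPM in organoids and 51.5 ± 3.83 CPM in papillae (SD, n = 5 each), 7.63-fold lower (adjusted p = 3.24e-05 by edgeR). The organoids of pig 2 had 15.6 CPM of LAMA4 and the other organoids 4.23 to 5.19 CPM. LAMA1, an α chain of embryonic and some adult basement membranes, averaged 0.458 ± 0.504 CPM in organoids and 30.9 ± 14.9 CPM in papillae (SD, n = 5 each), 63.7-fold lower (adjusted p = 2.69e-05 by edgeR). LAMA1, at 0.0410 to 1.08 CPM in organoids, also passed the filter on low counts through the papillae alone. Its call as lower carries no more than these levels. LAMB4, with 2 counts in organoids and 16 in papillae, was too low to test.

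To compare chains with each other, CPM were divided by exon length in kb, and each gene was given as a percent of the per-kb total of its class in that library. These shares are descriptions of RNA, with no test, and say nothing of assembled trimers. LAMB3 made up 77.0 to 92.6% of β chain RNA in organoids and 28.4 to 39.5% in papillae, where LAMB2 led with 45.4 to 57.8%, against 4.70 to 9.94% in organoids. LAMA5 led the α chains in both, with 71.1 to 86.0% in organoids and 64.9 to 75% in papillae. Thus the leading β chain differed between organoids and papillae, while the leading α chain was the same gene. LAMA3, which supplies the α chain of the anchoring laminin, held 12.9 to 27.0% of α chain RNA in organoids and 6.13 to 12.9% in papillae. Per kb, LAMB3 exceeded LAMA3 by 5.16 to 17.9 times in organoids and by 2.32 to 5.43 times in papillae.

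**Figure D2:**
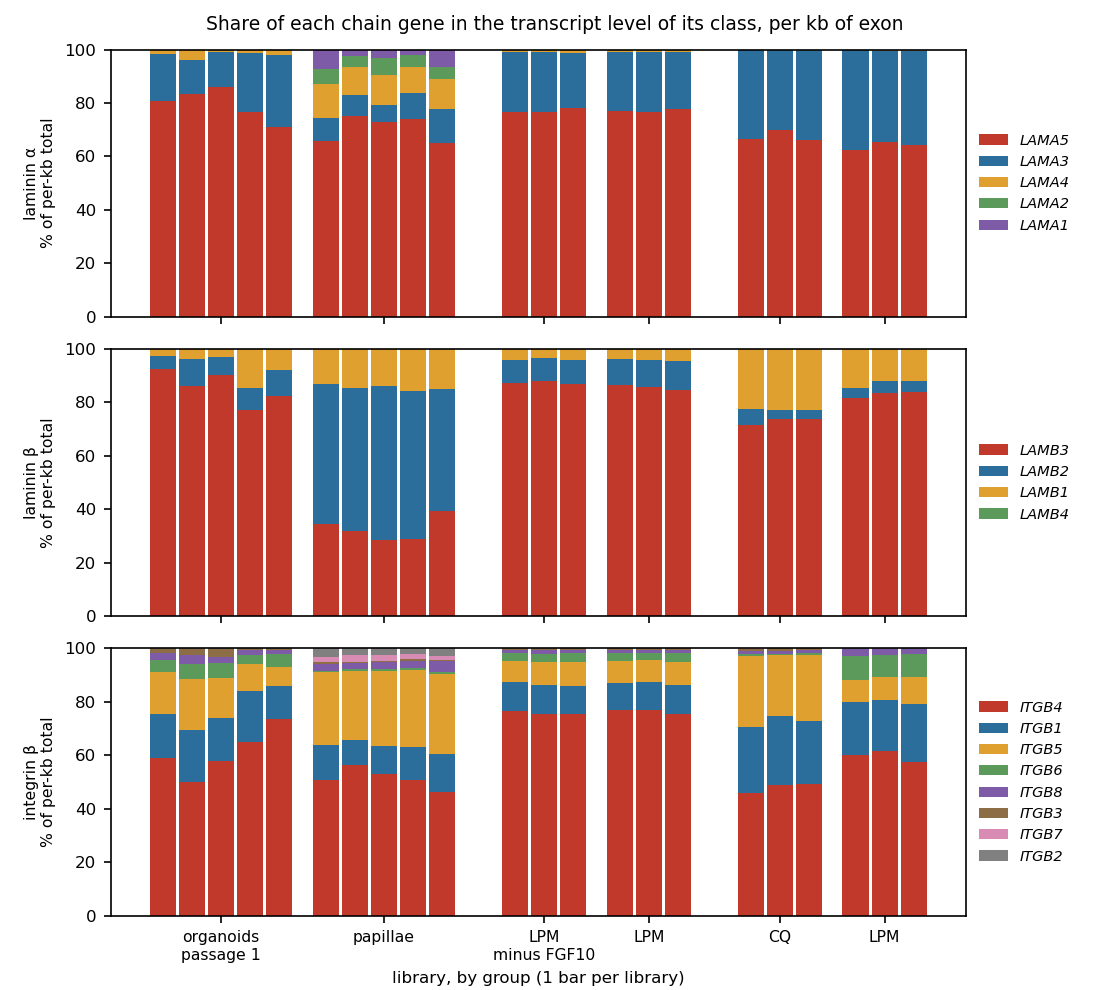
Share of each gene in the per-kb total of the laminin α and β chains and of the integrin β subunits, as stacked percent per library, in 6 groups. LAMB3 fills 77.0 to 92.6% of β chain RNA in organoids and 28.4 to 39.5% in papillae, LAMB1 fills 22.3 to 22.9% in CQ and 12.0 to 14.7% in LPM beside it, and ITGB4 has the largest share of integrin β RNA in all 6 groups.

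The epithelial laminin receptors were called higher in 3 of 3 subunits. ITGA6 (chromosome 15, 78504108 to 78591779), the α subunit of the hemidesmosome, had 611, 302, 566, 418 and 691 CPM in the organoids of pigs 1 to 5, against 142, 94.4, 95.8, 132 and 143 CPM in papillae. ITGB4 (chromosome 12, 5651292 to 5685601), its β partner, had 961, 789.7, 1041, 854 and 1593 CPM in organoids, against 406, 519, 407, 375 and 359 CPM in papillae. Neither gene's groups overlapped, and the changes were 4.26-fold for ITGA6 (adjusted p = 1.58e-05 by edgeR) and 2.53-fold for ITGB4 (adjusted p = 0.000156 by edgeR). ITGA3 (chromosome 12, 26234769 to 26269327), which pairs with ITGB1 to bind the same laminin outside hemidesmosomes, averaged 316 ± 55.9 CPM in organoids and 58.6 ± 9.58 CPM in papillae (SD, n = 5 each). ITGB1, the β subunit shared by most laminin, collagen and fibronectin receptors, averaged 354 ± 29.6 CPM in organoids and 121 ± 15.8 CPM in papillae (SD, n = 5 each), 2.93-fold higher (adjusted p = 1.34e-06 by edgeR). Keratinocyte markers of the basal layer were lower in organoids over the same libraries, as given above, and their part in these values was not tested.

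Of the 5 other epithelial subunits, 4 were called higher in organoids and 1, ITGB5, was not called. ITGB6 (chromosome 15, 67041516 to 67175409), an epithelial subunit that with ITGAV binds fibronectin and activates latent TGF-β, had 68.7, 84.2, 94.9, 38.1 and 95.5 CPM in organoids, against 2.96, 6.65, 6.63, 6.16 and 5.69 CPM in papillae. All organoids were above all papillae, and the log2 change was 3.76 (SE 0.30, adjusted p = 1.22e-06 by edgeR). ITGAV itself (chromosome 15, 91604666 to 91711843) had 236, 200.4, 229, 99.1 and 129 CPM in organoids, against 34.7, 38.4, 33.6, 40.8 and 43.7 CPM in papillae, 4.67-fold higher (adjusted p = 9.21e-06 by edgeR). The organoids of pig 4 were lowest in both genes. ITGB8, another partner that activates latent TGF-β, averaged 60.6 ± 16.4 CPM in organoids and 34.9 ± 7.73 CPM in papillae (SD, n = 5 each), with a single papilla, that of pig 5, at 48.5 CPM inside the organoid range. ITGB8 was 1.74-fold higher (adjusted p = 0.00512 by edgeR), and higher in 5 of 5 pigs. ITGB5, the vitronectin-binding partner, averaged 104 ± 33.9 CPM in organoids and 104 ± 4.92 CPM in papillae (SD, n = 5 each), with no call (adjusted p = 0.988 by edgeR) and the organoid values of pigs 1 to 3 above all papillae and those of pigs 4 and 5 below them. Per kb, ITGB6 stood at 0.294 to 0.680 of ITGB5 in organoids and at 0.0149 to 0.0337 in papillae.

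Strand was ignored in counting, so a member that shares exon bases with another gene also holds that gene's reads. ITGA2 (chromosome 16, 32336240 to 32440311), a collagen receptor subunit of epithelia and platelets, shared 67.5% of its exon bases with MOCS2 on the opposite strand. ITGA2 had 104 to 195 CPM in organoids and 23.5 to 38.2 CPM in papillae, and was called higher (4.59-fold, adjusted p = 2.57e-06 by edgeR). If every MOCS2 count were taken from it, 20.9 to 59.5 CPM would be left in organoids, which overlaps the whole ITGA2 level of papillae, so for this gene the direction could not be separated from that of MOCS2. ITGAV shared 12.4% with LOC110256917, also on the opposite strand. With all counts of LOC110256917 removed, organoids kept 87.7 to 213 CPM of ITGAV, above the full papilla level of 33.6 to 43.7 CPM. LAMB1 shared 9% with LOC100623096, and ITGAM, LAMB3, ITGA1 and LAMA1 shared 0.607 to 1.83% with other genes.

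Among the 8 integrins of stroma, muscle and vessels, 6 were called lower in organoids, 1 was called higher and 1 was not called. ITGA5 (chromosome 5, 19587361 to 19610580), the main fibronectin receptor subunit, averaged 0.647 ± 0.438 CPM in organoids and 46.2 ± 9.82 CPM in papillae (SD, n = 5 each), 72.1-fold lower (adjusted p = 6.02e-07 by edgeR). ITGA7 (chromosome 5, 21126565 to 21150875), the laminin receptor subunit of muscle, averaged 0.193 ± 0.197 CPM in organoids and 51.4 ± 16.8 CPM in papillae (SD, n = 5 each), 248-fold lower (adjusted p = 4.18e-07 by edgeR). ITGA5, ITGA7 and ITGA8 were near 0 in most organoids and passed the filter on low counts through the papillae alone. Their calls as lower carry no more than their levels. Without the organoids of pig 5 the log2 change of ITGA7 was -8.67, against -7.95 with all libraries. The papilla of pig 3 was highest in ITGA7, at 80.7 CPM, and was also highest in the summed skeletal muscle markers, at 7645 CPM. The other papillae did not keep this order. That of pig 5 was next in the muscle markers, at 2744 CPM, but lowest in ITGA7, at 38.0 CPM. That of pig 2 was lowest in the muscle markers, at 249 CPM, but next highest in ITGA7, at 48.0 CPM. The collagen receptor subunit ITGA1 was 10.4-fold lower, at 0.902 to 3.54 CPM in organoids and 17.1 to 22.6 CPM in papillae, with 1.19% of its exon bases shared with PELO. ITGA8, which binds nephronectin, was 10.3-fold lower (log2 change -3.37, and -5.11 without the organoids of pig 4). ITGA9, which binds tenascin, was 13.5-fold lower, and the collagen receptor subunit ITGA10 was 2.18-fold lower (6.50 ± 1.33 CPM in organoids and 14.2 ± 2.88 CPM in papillae, SD, n = 5 each). All 18 markers of fibroblasts, smooth muscle and skeletal muscle were also called lower in these organoids. Their sums there were near 0, so these calls too carry no more than their levels. The part of these markers in the integrin values was not tested.

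The exceptions in that class were ITGB3 and ITGA11. ITGB3, the β partner of ITGAV in vessels and of ITGA2B in platelets, had 20.1, 27.2, 38.4, 6.51 and 5.51 CPM in organoids, against 4.50, 3.45, 2.13, 2.35 and 3.41 CPM in papillae. It was higher in every organoid library than in any papilla, at 6.15-fold (adjusted p = 0.000966 by edgeR). The 6 endothelial markers summed to 21 to 114 CPM in organoids and 338 to 512 CPM in papillae. Of these, 5 were called lower and 1 was not called, with a median log2 change of -8.04, so the sum understates the fall of most of them. ITGA11, a collagen receptor subunit of fibroblasts, had 0.122, 9.30, 1.45, 45.1 and 4.79 CPM in organoids, against 4.94, 4.15, 4.30, 2.10 and 1.94 CPM in papillae. Its organoid values lay on both sides of the papillae and its log2 change of 1.80 (SE 1.02) was not called (adjusted p = 0.138 by edgeR). Leaving out the organoids of pig 1 gave a log2 change of 2.13 and a call (adjusted p = 0.0342), leaving out those of pig 4 gave a log2 change of 0.18 (adjusted p = 0.848 by edgeR), and limma-voom gave -0.98 (adjusted p = 0.383).

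Of the 9 integrin subunits of leukocytes and platelets, 6 were called lower in organoids and 3 were not called. ITGB2, the β subunit of the leukocyte-specific integrins, averaged 1.13 ± 0.659 CPM in organoids and 9.88 ± 1.84 CPM in papillae (SD, n = 5 each), 8.73-fold lower (adjusted p = 5.58e-05 by edgeR). ITGB7, the β subunit of gut-homing lymphocytes, averaged 0.353 ± 0.245 CPM in organoids and 11.7 ± 2.58 CPM in papillae (SD, n = 5 each), 33.4-fold lower (adjusted p = 2.22e-06 by edgeR). Their α partners ITGAX, ITGAM and ITGAD, of macrophages and dendritic cells, were 55.9-fold, 7.08-fold and 6.77-fold lower, and ITGA4, of lymphocytes, had 2 counts in organoids and 161 in papillae. ITGB7, ITGAX, ITGAM, ITGAD and ITGA4 were near 0 in organoids and passed the filter on low counts through the papillae alone. Their calls as lower carry no more than their levels. ITGAD, ITGAX and ITGAM are neighbouring copies on chromosome 3, 8.95 and 15.3 kb apart, and a pair matching more than a single place in the genome entered no count. ITGAL, the partner of ITGB2 on lymphocytes, did not follow it, with 3.50, 4.92, 4.70, 6.57 and 14.5 CPM in organoids, against 6.23, 7.46, 5.62, 6.03 and 5.29 CPM in papillae (adjusted p = 0.707 by edgeR). Per kb, ITGAL stood at 1.55 to 12.1 times ITGB2 in organoids and at 0.289 to 0.474 times in papillae. ITGAE, of lymphocytes within epithelia, and ITGA2B, of platelets, were also not called. ITGAE averaged 5.18 ± 2.00 CPM in organoids and 6.27 ± 1.15 CPM in papillae, and ITGA2B 6.23 ± 2.53 CPM in organoids and 7.13 ± 2.7 CPM in papillae (SD, n = 5 each). The 13 leukocyte markers summed to 30.6 to 108 CPM in organoids and 173 to 217 CPM in papillae, with 9 of 12 tested called lower and 1, CD68, higher. PTPRC, CD3E and CD3D were at 0 in all organoid libraries.

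Genes that work with this family were split in the same contrast. Of all genes tested, 67.5% were called, 32.4% higher and 35.1% lower. The adhesion linkers and the other laminin receptors given below were called at near that total share. Of 22 hemidesmosome and basement membrane partners tested, 4 were called higher and 16 lower, with a median log2 change of -1.57. TINAGL1, a basement membrane glycoprotein, averaged 416 ± 136 CPM in organoids and 90.3 ± 10.3 CPM in papillae, and NTN4, a netrin of laminin sheets, averaged 40.9 ± 32.8 CPM in organoids and 10.4 ± 1.72 CPM in papillae (SD, n = 5 each). NID1, which links laminin to collagen, averaged 0.0241 ± 0.0384 CPM in organoids and 27.6 ± 6.85 CPM in papillae, and PXDN, which crosslinks basement membrane collagen, averaged 0.283 ± 0.219 CPM in organoids and 46.2 ± 10.7 CPM in papillae (SD, n = 5 each). Of 33 integrin activators and adhesion linkers, 10 were higher and 13 lower. The epithelial integrin activator FERMT1 was 23.4-fold higher and the adaptor BCAR1 2.32-fold higher, while TNS2 was 25.9-fold lower and LIMS2 averaged 0.139 ± 0.165 CPM in organoids and 41.9 ± 8.27 CPM in papillae (SD, n = 5 each). NID1, PXDN and LIMS2 were near 0 in organoids and passed the filter on low counts through the papillae alone. For these genes a call as lower carries no more than the levels, and the counts of lower genes above include them. Of 12 other laminin receptors and the enzymes that glycosylate dystroglycan, 5 were higher and 3 lower, with SDC4 at 6.97-fold higher, and POMT1 at 2.49-fold and POMT2 at 1.59-fold lower. Of 18 integrin ligands other than laminins, 5 were higher and 10 lower, with NPNT at 25.0-fold and CDH1 at 2.85-fold higher, and POSTN at 175-fold and FBLN5 at 11.5-fold lower. NPNT encodes nephronectin, the ligand of the integrin of ITGA8, which itself was at 0 to 1.74 CPM in organoids.

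Removal of FGF10 changed no integrin or laminin gene past the threshold. Of 29 members tested, edgeR's quasi-likelihood test called 0, and 4 had an unadjusted p under 0.05 (LAMB3, LAMB2, ITGA5 and ITGA11). DESeq2 called 0, with 3 at an unadjusted p under 0.05, and limma-voom 0, with 5. Of all 14262 genes tested, 1.78% were called, 0.582% higher and 1.2% lower. For the 16 members of the epithelial basement membrane and its receptors, the log2 change without FGF10 lay between -0.13 and 0.11 with an SE of at most 0.061. The 13 other tested members, all of low level, had log2 changes of -0.22 to 0.94 with an SE of at most 0.43. The remaining 9 had 0 to 12 counts without FGF10 and 0 to 15 counts in LPM, too few to test.

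Some members lay apart between the media by small amounts. LAMB2 had 95.3, 94.1 and 98.6 CPM without FGF10, against 106, 102 and 107 CPM in LPM. These groups did not overlap, but the log2 change of -0.13 (SE 0.04) was not called (adjusted p = 0.117 by edgeR). Groups did not overlap in 16.6% of all 14262 genes tested, so this in itself was not rare. LAMA5 (631 to 636 CPM without FGF10, 644 to 677 CPM in LPM) and ITGAL (9.21 to 9.51 CPM and 7.35 to 8.82 CPM) did not overlap either. LAMB3 had 669, 693 and 663 CPM without FGF10, against 672, 619 and 587 CPM in LPM (log2 change 0.11, adjusted p = 0.271 by edgeR), and was called only without LPM library 1 (log2 change 0.16, adjusted p = 0.0364). ITGA5 had 0.698, 0.469 and 0.704 CPM without FGF10, against 0.281, 0.258 and 0.431 CPM in LPM (adjusted p = 0.385 by edgeR). All 3 values without FGF10 were above those in LPM, at a level under 1 CPM. ITGA11 had 2.54, 1.88 and 3.47 CPM without FGF10, against 1.08, 1.55 and 1.92 CPM in LPM (log2 change 0.80, adjusted p = 0.139 by edgeR). It was called higher with no filter on low counts (adjusted p = 0.0237) and without library 2 of the medium lacking FGF10 (adjusted p = 0.0365). The hemidesmosome pair was close in both media, with ITGB4 at 2741 ± 78.3 CPM without FGF10 and 2854 ± 131 CPM in LPM, and ITGA6 at 603 ± 51.5 CPM without FGF10 and 601 ± 39.6 CPM in LPM (SD, n = 3 each).

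Among the genes that work with the family, FGF10 removal was followed by 2 calls. Of 16 tested hemidesmosome and basement membrane partners, COL7A1, the collagen of anchoring fibrils, was called higher at 183 ± 3.47 CPM without FGF10 and 165 ± 5.44 CPM in LPM (SD, n = 3 each, adjusted p = 0.0427 by edgeR). NTN4 was called lower at 27.2 ± 0.714 CPM without FGF10 and 32.1 ± 1.62 CPM in LPM (SD, n = 3 each, adjusted p = 0.0397 by edgeR). None of the 29 adhesion linkers, 12 other laminin receptors or 16 other ligands tested was called. Of all genes tested, 1.78% were called. The most abundant of each were ACTN4, an actin crosslinker, with a log2 change of -0.11, RPSA, a ribosomal protein also described as a laminin receptor, with -0.08, and CDH1, the ligand of ITGAE, with -0.05. The keratins KRT15 (basal) and KRT4 (suprabasal) were called lower without FGF10. The 3 basal squamous markers summed to 4791 to 5181 CPM without FGF10 and 5322 to 5516 CPM in LPM. The 3 suprabasal markers summed to 208 to 282 CPM without FGF10 and 373 to 446 CPM in LPM. The 4 simple epithelial markers overlapped in sum and none was called. The part of these markers in the members' values was not tested.

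CQ libraries differed from LPM libraries in 17 of the 24 members tested, 7 higher and 10 lower, and the calls were higher for laminins and mostly lower for integrins. Of 7 laminin chains tested, 4 were called higher and 0 lower, led by LAMC1 at 3.23-fold and LAMA5 at 2.74-fold. Of 17 integrin subunits tested, 3 were called higher and 10 lower, the largest among those with counts in both media being ITGB6 at 15.5-fold and ITGAV at 6.08-fold lower. Of all 13827 genes tested, 47.9% were called, 23.1% higher and 24.8% lower. The median log2 change was -0.22 over the 24 members and -0.07 over all genes tested, and none of the 17 called members overlapped between groups, as was so for 99.2% of all called genes. The other 14 members had 0 to 51 counts in CQ and 0 to 47 counts in LPM and were not tested. CQ libraries held 14014 to 16005 genes with a count, and among genes of 10 to 30 mean counts the variance was 12.7 times the mean in CQ and 1.75 times in LPM, so low members were measured less precisely in CQ.

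**Figure D3:**
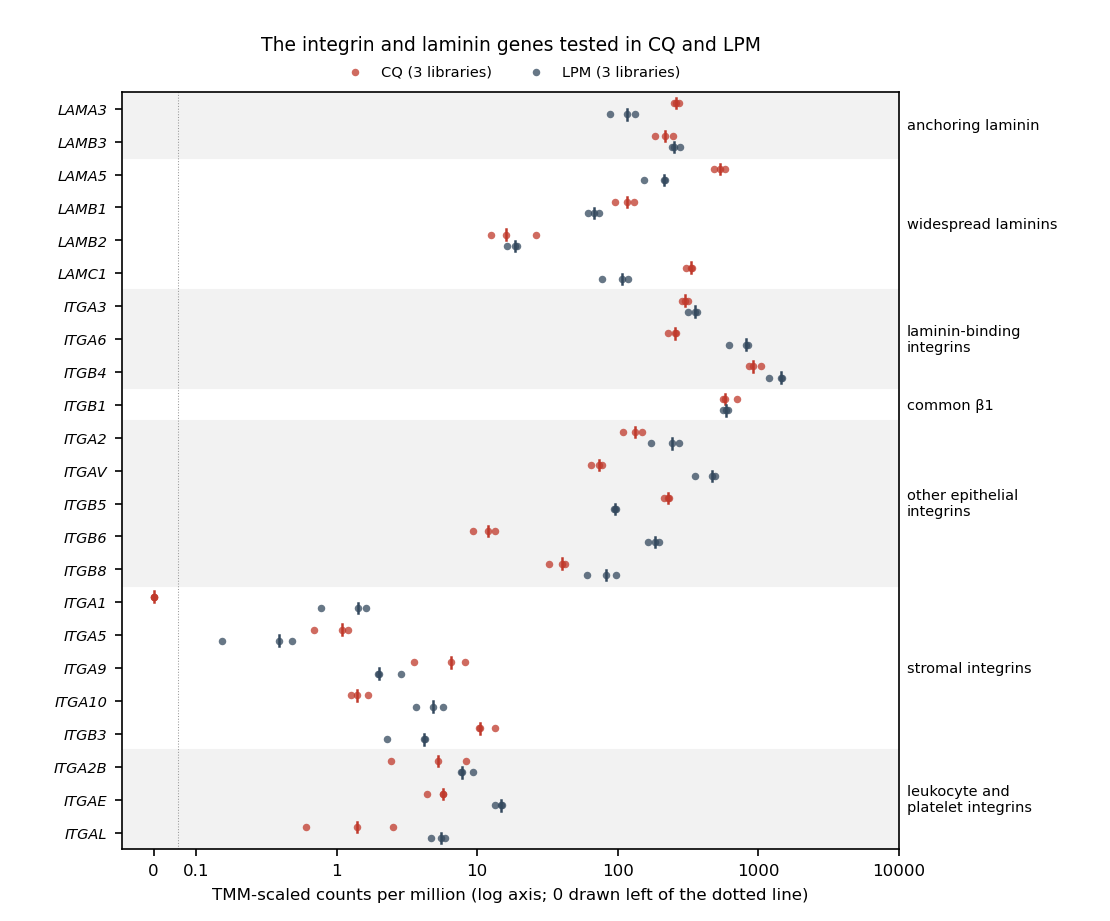
Level of 23 tested integrin and laminin genes in each CQ (3) and LPM (3) library of the CQ experiment, as TMM-scaled CPM on a log axis, with 0 drawn left of the dotted line and a tick at each group's median. LAMC1 lies at 303 to 338 CPM in CQ and 77.6 to 118 CPM in LPM, and ITGB6 at 9.40 to 13.5 CPM in CQ and 163 to 195 CPM in LPM.

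The laminin chains called higher in CQ were LAMA3, LAMA5, LAMB1 and LAMC1. LAMA5 had 531, 582 and 482 CPM in CQ, against 215, 214 and 154 CPM in LPM, a log2 change of 1.45 (SE 0.15, adjusted p = 6.17e-05 by edgeR). LAMC1 (chromosome 9, 124283668 to 124405967) had 303, 334 and 338 CPM in CQ, against 118, 107 and 77.6 CPM in LPM, a log2 change of 1.69 (SE 0.16, adjusted p = 3.72e-05 by edgeR). Both were far apart between the media, and LAMB1 was also higher, at 114 ± 17.8 CPM in CQ and 67.6 ± 6.53 CPM in LPM (SD, n = 3 each, 1.69-fold, adjusted p = 0.00217 by edgeR). LAMB2, at 18.3 ± 7.08 CPM in CQ and 17.9 ± 1.53 CPM in LPM (SD, n = 3 each), was not called (adjusted p = 0.930 by edgeR). Among the anchoring chains, LAMA3 had 274, 259 and 250.3 CPM in CQ, against 133, 115 and 87.5 CPM in LPM, 2.33-fold higher (adjusted p = 0.000210 by edgeR). LAMB3 was not called, at 217 ± 32.1 CPM in CQ and 255 ± 17.6 CPM in LPM (SD, n = 3 each, adjusted p = 0.152 by edgeR). Without CQ library 2 it was called lower (log2 change -0.37, adjusted p = 0.0473 by edgeR).

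The balance between chains moved with these changes. Per kb, LAMB1 made up 22.3 to 22.9% of β chain RNA in CQ and 12.0 to 14.7% in LPM. LAMB3 still led the β chains, with 71.6 to 73.7% in CQ and 81.5 to 83.8% in LPM. Per kb, LAMB3 stood at 2.19 to 2.85 times LAMA3 in CQ and at 5.39 to 9.38 times in LPM.

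The epithelial integrins were called lower in CQ in 6 of 9 subunits, counting ITGB1, and higher in 1, ITGB5. ITGA6 had 227, 253 and 259 CPM in CQ, against 847, 816 and 622 CPM in LPM, a log2 change of -1.63 (SE 0.13, adjusted p = 1.78e-05 by edgeR). ITGB4, its hemidesmosome partner, was lower by less, with 851, 1042 and 914 CPM in CQ, against 1449, 1481 and 1179 CPM in LPM (1.46-fold, adjusted p = 0.00455 by edgeR). Per kb the ratio of ITGB4 to ITGA6 was 3.22 to 3.75 in CQ and 1.56 to 1.73 in LPM. ITGA3 had 288, 298 and 314 CPM in CQ, against 357, 366 and 314 CPM in LPM, and was not called (log2 change -0.20, adjusted p = 0.122 by edgeR). It was called lower with limma-voom (adjusted p = 0.0104) and without LPM library 3 (adjusted p = 0.0149). The ratio of ITGA6 to ITGA3 per kb was 0.647 to 0.695 in CQ and 1.62 to 1.94 in LPM, so within this experiment the more abundant laminin-binding α subunit was a different gene in each medium. In LPM of the FGF10 experiment the same ratio was 0.959 to 0.968. ITGB1 averaged 613 ± 77.0 CPM in CQ and 586 ± 28.4 CPM in LPM (SD, n = 3 each), with no call (adjusted p = 0.647 by edgeR).

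Markers of epithelial layers and of nerve also differed over the CQ libraries. Of the 3 basal squamous markers, the transcription factor TP63 was 4.89-fold and the keratin KRT15 2.62-fold lower and KRT5 was not called, with a summed level of 2179 to 2478 CPM in CQ and 2066 to 2468 CPM in LPM. Of 3 suprabasal markers KRT4 was called lower, and their sum was 8.07 to 12.3 CPM in CQ and 64.8 to 78.4 CPM in LPM. Of the 4 simple epithelial markers, KRT8 was 1.61-fold higher, KRT18 4.57-fold and EPCAM 2.02-fold lower and KRT19 was not called, and they summed to 4132 to 4543 CPM in CQ and 3447 to 4391 CPM in LPM. The 6 nerve and Schwann cell markers summed to 23.8 to 44.0 CPM in CQ and 581 to 627 CPM in LPM, with NGFR, a neurotrophin receptor, called lower at 19.3-fold. SOX10, a defining marker of Schwann cells, had 0 counts in CQ and 1 count in LPM. The part of these markers in the integrin and laminin values was not tested.

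ITGAV and its β partners split. ITGAV had 64.6, 73.3 and 77.7 CPM in CQ, against 492, 467 and 354 CPM in LPM, a log2 change of -2.60 (SE 0.15, adjusted p = 2.43e-06 by edgeR). Taking every count of LOC110256917 from ITGAV would leave 268 to 428 CPM in LPM, still above the full CQ level. ITGB6 had 9.40, 12.0 and 13.5 CPM in CQ, against 195, 185 and 163 CPM in LPM, a log2 change of -3.96 (SE 0.16, adjusted p = 4.69e-07 by edgeR). ITGB8 was 2.08-fold lower, at 38.3 ± 4.99 CPM in CQ and 79.7 ± 18.2 CPM in LPM (SD, n = 3 each, adjusted p = 0.00160 by edgeR). ITGB5 (chromosome 13, 135468111 to 135587483) went the other way, with 229, 228 and 214 CPM in CQ, against 95.6, 93.4 and 96.6 CPM in LPM, 2.35-fold higher (adjusted p = 1.16e-05 by edgeR). ITGB3 was 3.22-fold higher, at 11.4 ± 1.74 CPM in CQ and 3.56 ± 1.12 CPM in LPM (SD, n = 3 each, adjusted p = 0.00300 by edgeR). Per kb, ITGB6 stood at 0.0210 to 0.0323 of ITGB5 in CQ and at 0.865 to 1.04 in LPM. ITGA2 was 1.75-fold lower (130.4 ± 20.2 CPM in CQ and 229 ± 51.5 CPM in LPM, SD, n = 3 each), a direction that again could not be separated from that of MOCS2: LPM would keep 0 to 74.9 CPM with its counts removed.

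The stromal and leukocyte integrins were low in both media of the CQ experiment, and the calls of ITGAL, ITGA10 and ITGA9 were lost when some libraries were left out. ITGAE had 5.71, 4.39 and 5.73 CPM in CQ, against 13.3, 15.1 and 14.7 CPM in LPM, 2.72-fold lower (adjusted p = 0.00110 by edgeR). ITGAL was called lower (1.51 ± 0.963 CPM in CQ and 5.35 ± 0.625 CPM in LPM, SD, n = 3 each), a call lost when LPM library 1, 2 or 3 was left out (adjusted p = 0.0968, 0.0962 and 0.0587 by edgeR). Its log2 change was -1.82, and -2.41 without CQ library 3. ITGA10 was called lower (1.45 ± 0.212 CPM in CQ and 4.75 ± 1.02 CPM in LPM, SD, n = 3 each), a call lost without LPM library 2 (adjusted p = 0.0812 by edgeR) or 3 (0.0795). ITGA9 was called higher (6.06 ± 2.36 CPM in CQ and 2.28 ± 0.497 CPM in LPM, SD, n = 3 each), a call lost without LPM library 1 (adjusted p = 0.0652 by edgeR), 2 (0.118) or 3 (0.0931) or CQ library 1 (0.0815). ITGA1 had 0 counts in CQ and 80 in LPM, at least 19.4-fold lower against a floor of 3 counts over the group, which covers counting error only and not the wider spread of CQ libraries. ITGA5 and ITGA2B were not called (adjusted p = 0.154 and 0.258 by edgeR), the second being called lower without CQ library 3 (log2 change -1.11, adjusted p = 0.04998). Of members too low to test, ITGB2 had 0 counts in CQ and 47 in LPM, and the 51 counts of LAMA2 in CQ all came from library 3. The 13 leukocyte markers summed to 27.9 to 34.3 CPM in CQ and 54.9 to 65.1 CPM in LPM. They did not move together: of 5 tested, 2 were called higher in CQ and 2 lower. The 6 endothelial markers summed to 0.940 to 3.40 CPM in CQ and 12.0 to 17.5 CPM in LPM. The part of both marker lists in these values was not tested.

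Genes that work with the family also differed between CQ and LPM. Of all genes tested, 47.9% were called, 23.1% higher and 24.8% lower. The other laminin receptors given below were called at near that total share. Of 15 tested hemidesmosome and basement membrane partners, 4 were called higher and 9 lower. CD151, a tetraspanin that associates with laminin-binding integrins, averaged 279 ± 7.26 CPM in CQ and 47.6 ± 5.01 CPM in LPM, and NTN4 averaged 36.3 ± 8.48 CPM in CQ and 8.13 ± 0.555 CPM in LPM (SD, n = 3 each). COL18A1, a basement membrane collagen, averaged 14.6 ± 1.65 CPM in CQ and 301 ± 29.0 CPM in LPM, and TINAGL1 averaged 61.4 ± 4.50 CPM in CQ and 485 ± 62.9 CPM in LPM (SD, n = 3 each). Of 29 activators and linkers, 15 were higher and 6 lower, with RSU1 at 3.57-fold and ILK at 2.16-fold higher, and TNS4 and TNS3 both at 10.4-fold lower. RSU1 and ILK belong to one adhesion complex that binds integrin β tails, and TNS3 encodes a tensin that links integrins to actin. Of 12 other laminin receptors, 3 were higher and 3 lower, with SDC2 at 2.95-fold and POMT1 at 1.76-fold higher, and SDC4 at 4.10-fold and BCAM, a receptor for LAMA5 laminins, at 3.31-fold lower. Of 13 other ligands tested, 0 were higher and 5 lower, with NPNT at 8.32-fold and TGFB1 at 1.82-fold lower.

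**Figure D4:**
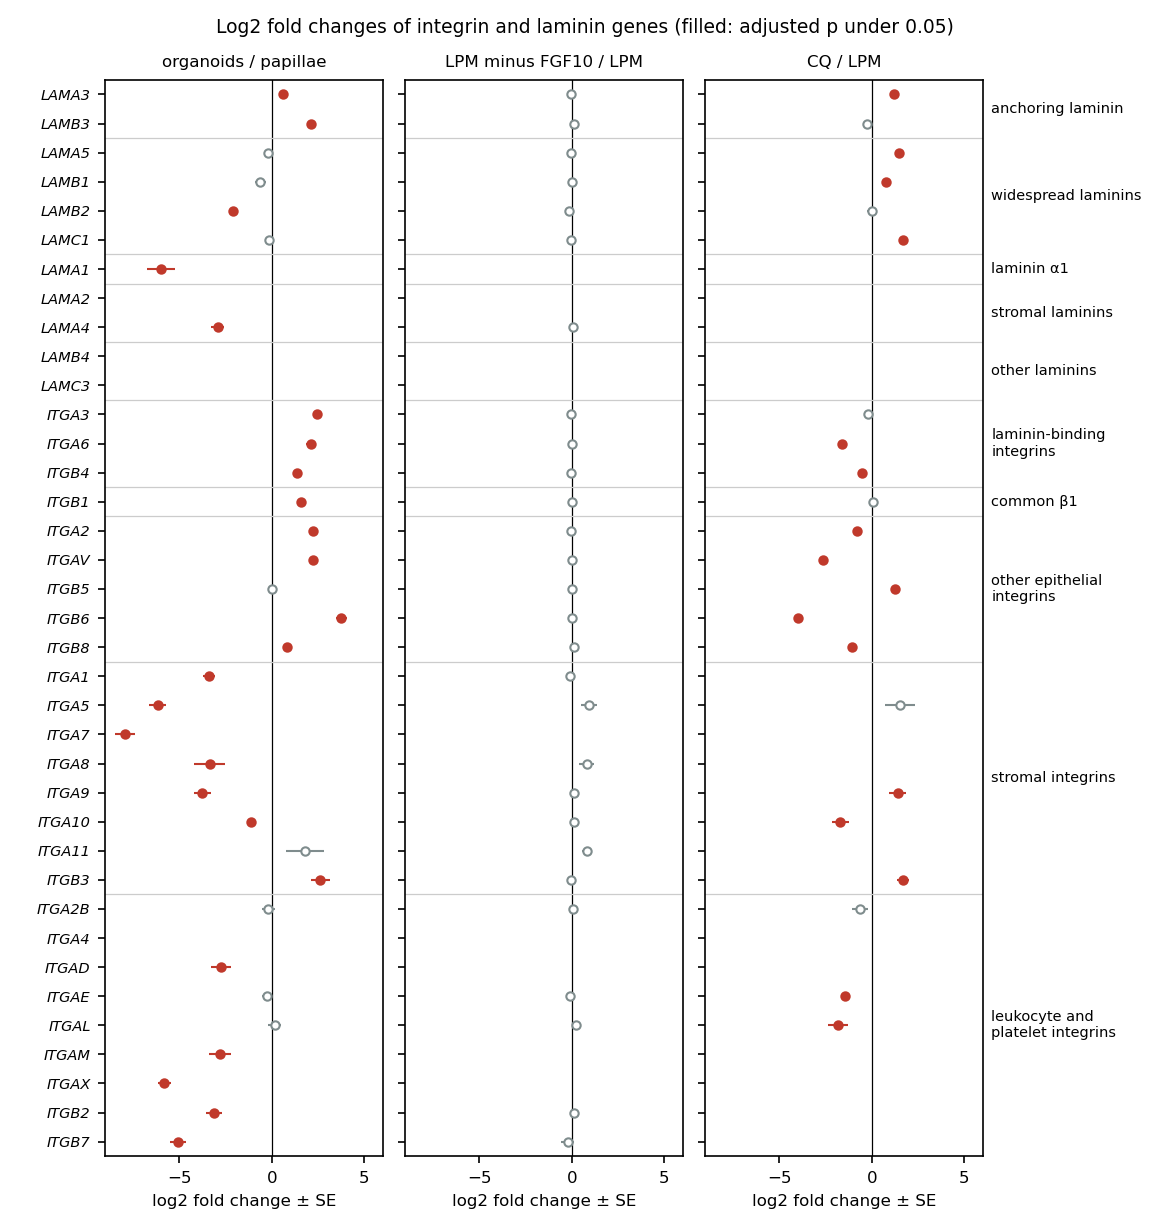
Log2 change of tested integrin and laminin genes with their SE in organoids against papillae (33 drawn), LPM minus FGF10 against LPM (28) and CQ against LPM (22), genes with 3 counts or fewer in a group left out. Without FGF10 all epithelial members lie between -0.13 and 0.11, whereas ITGB6 lies at 3.76 in organoids and at -3.96 in CQ.

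The organoid and CQ comparisons share no library, and the members' calls in both can be set side by side. Of the 12 members called higher in organoids than in papillae, 6 were called lower in CQ than in LPM (ITGA2, ITGA6, ITGAV, ITGB4, ITGB6 and ITGB8), 2 were called higher (LAMA3 and ITGB3) and the others, among them ITGA3, ITGB1 and LAMB3, were not called. Of all 5281 genes called higher in organoids, 32.1% were called lower in CQ and 20.1% higher. Of the 8 members not called in organoids, 4 were called higher in CQ (LAMA5, LAMB1, LAMC1 and ITGB5) and 2 lower (ITGAE and ITGAL), against 23.1% higher and 20.4% lower of the 5300 such genes over the whole table. Of the 17 called lower in organoids, 12 were too low to test in the CQ experiment, as were 41.6% of all 5730 genes called lower. No test of these counts was made.

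LPM organoids of the 3 experiments did not have the same levels, on a scale set over all 22 libraries and with no test, since experiments and counting versions differ. LAMA5 had a median of 659 CPM in passage 1 organoids, 708 CPM in LPM of the FGF10 experiment and 233 CPM in LPM of the CQ experiment. On this scale LAMA5 lay at 432 to 525 CPM in CQ and at 439 to 701 CPM in passage 1 organoids. LAMB2 had medians of 60.8, 112 and 20.8 CPM in the same 3 groups, and LAMB3 medians of 573, 652 and 273 CPM. ITGB4 had medians of 1047, 3025 and 1577 CPM. ITGAV and ITGB6 were highest in LPM of the CQ experiment, with medians of 217, 283 and 510 CPM and of 91.1, 107 and 202 CPM. The stromal members ITGB3 and LAMA4 were lowest there, with medians of 21.8, 11.2 and 4.55 CPM and of 4.90, 4.98 and 0.556 CPM. LAMA5, called higher in CQ, was thus set against LPM libraries with a lower level than those of the other LPM groups.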

How the data were processed

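Messenger RNA of 22 pig libraries was selected with poly-T beads and sequenced, per the labels' protocols. A column kit was used for organoid RNA and a low-input kit with the DNase step left out for papilla RNA, per the labels' protocols, which do not say which libraries kept strand. The submitters' processing notes name STAR 2.7.10b, featureCounts, DESeq2, FastQC 0.11.9 and MultiQC 1.14. The deposited values are counts, whole numbers of read pairs per gene that the authors obtained with featureCounts 2.0.3 (16 libraries, 27376 genes) or 2.0.6 (the 6 libraries of the CQ experiment, 29850 genes beside 1 unnamed entry that was dropped here), per the file headers. The headers also show that counting took no account of strand, gave a pair to every gene it overlapped and discarded pairs with several mapping places. Coordinates are those of the deposited files (Sscrofa11.1).

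Each comparison was fitted on its own groups in R 4.3.3 with the quasi-likelihood test of edgeR 4.0.16, after TMM scaling and filterByExpr. P-values were adjusted by Benjamini-Hochberg across all genes of the fit, and calls were made at an adjusted p under 0.05. The fit was tested on simulated counts with 200 changed genes. Alternatives were other scalings, no filter, a filter at 1 CPM, DESeq2 1.42.0, limma 3.58.1 voom with quality weights, a replicate block and each library left out. Papillae and passage 1 organoids came from the same pigs, with correlations of their deviations of 0.0355 to 0.110 by pig. Intervals and floors (3 counts) hold for counting error alone, because without molecular identifiers several reads can stem from a single molecule. Levels per kb are CPM over the exon length in the files.

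The members, roles and gene lists were chosen with earlier results of these data known, so no count over a list is independent support. The members were named, except that 1 member and 2 genes of the further lists are not reported here. Of each further list up to 2 called genes per comparison and direction were named, those of smallest p, or else its most abundant gene. Bounds for overlapping genes subtract all counts of the neighbour.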

Additional observations from a re-analysis of the deposited data

Results flagged for a closer look

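Within the groups of 5 libraries, a value was singled out where its gap to the nearest other library exceeded Dixon's critical share of the range, 0.71 for 5 values. Of 67 groups with at least 50 counts, 7 had such a value, and chance gives about 1 in 20. In organoids, LAMA4 was at 15.6 CPM in pig 2 and at 4.23 to 5.19 CPM in the others. ITGA11 was at 45.1 CPM in the organoids of pig 4 and at 0.122 to 9.30 CPM in the others, and ITGA8 at 1.74 CPM there and at 0 to 0.295 CPM in the others. ITGAL was at 14.5 CPM in the organoids of pig 5 and at 3.50 to 6.57 CPM in the others. In papillae, ITGA7 was at 80.7 CPM in pig 3 and at 38.0 to 48.0 CPM in the others. ITGB8 was at 48.5 CPM in the papilla of pig 5 and at 30.5 to 33.6 CPM in the others. ITGB6 was at 2.96 CPM in the papilla of pig 1 and at 5.69 to 6.65 CPM in the others.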

How the results depend on the processing

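No called member changed direction under any alternative run. In organoids against papillae, leaving out each library gave 11 to 13 members higher and 17 to 19 lower, and the other settings 11 to 12 and 16 to 18. In LPM minus FGF10 against LPM the count of higher members was 1 with no filter, 0 to 1 with a library left out and 0 in the other settings, and the count of lower members was 0 throughout. In CQ against LPM the counts were 6 to 8 higher and 8 to 12 lower with a library left out, and 6 to 8 and 9 to 11 in the other settings. With the replicate block the counts were 12 higher and 18 lower in organoids (paired by pig), 0 and 0 in the FGF10 experiment, and 6 and 9 in the CQ experiment. In these last 2 experiments libraries with the same number did not deviate together (correlations of -0.0457 to 0.0475 and -0.00754 to 0.0213), so the numbers were not taken as pairs. With the block ITGA9 (adjusted p = 0.0726 by edgeR) and ITGA10 (0.0664) lost their calls in CQ, and ITGA9 also with no filter (0.0525). Limma-voom gave larger log2 changes for some low members of the organoid comparison, -7.33 for LAMA1, -5.71 for ITGA8, -8.58 for ITGA7 and -4.39 for ITGA9. Scaling by library size alone moved the median log2 change of all genes to 0.28 in organoids and the share of calls that were higher to 59.6%, against 48.0% with TMM, with 12 members higher and 17 lower either way. Over all genes in the FGF10 experiment, 254 calls became 429 with no filter and 125 and 128 without LPM library 2 or library 1 lacking FGF10, and the share of calls that were higher was 42.3% by library size alone, against 32.7% with TMM. Depth limited members under about 1 CPM, most of all in CQ.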
